A study of Mus musculus with 20 samples.

Results

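The members of the zinc finger set examined here are the mouse genes whose symbol is Zfp followed only by a number, together with *Zbed6*, chosen by symbol and by a mean level of at least 3 CPM (read pairs scaled to library size) over all 20 hearts. This mean is over both groups, so a gene can pass through the group in which it is higher. There were 280 members (279 *Zfp* genes and *Zbed6*) among 334 genes with such symbols and 23420 genes in all. Just inside the level threshold were *Zfp947* (3.00 CPM), *Zfp365* (3.04 CPM) and *Zfp786* (3.10 CPM), and just outside it *Zfp536* (2.90 CPM), *Zfp109* (2.84 CPM) and *Zfp455* (2.69 CPM). RNA was sequenced from whole hearts of 20 male wild-type C57BL/6 mice aged 9 weeks, 10 of them on a control diet and 10 on an iron-deficient diet that made them anemic (IDA mice), in both cases for 6 weeks from 3 weeks of age. The labels give the iron of the deficient diet as below 2 ppm in a field and above it in another. The comparison asks how the heart's transcripts differ after dietary iron restriction, which lowers hemoglobin and oxygen delivery at the same time, so that iron lack and anemia cannot be told apart. A whole heart holds many cell types, and fewer cells of a type and less RNA per cell cannot be told apart in it.

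Genes named *Zfp* mostly encode proteins with C2H2 zinc fingers, short loops in which a pair of cysteines and a pair of histidines hold a zinc ion and through which the protein grips DNA or RNA. Many also carry a KRAB box, a domain that recruits TRIM28 (KAP1) and, through it, the histone methyltransferase SETDB1, which silences retroelements and imprinted alleles. Such genes arose by repeated duplication and many stand in clusters of similar neighbours, so read pairs can be shared between them. The symbol is a name and not a single family: it also covers RNA decay, ribosome assembly and ubiquitin ligase genes, while *Zbed6* encodes a BED-type finger protein descended from a transposon.

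All 280 members passed the filter for testing (at least 1 CPM in at least 10 mice), as did 13590 genes in all. The heart used these genes at low level: the members together took 0.933% to 1.14% of the counted read pairs of a mouse, and the median member had 170.2 read pairs per mouse. Per kilobase of exon, the median member was at 6.21 CPM per kb and the median tested gene at 14.2 CPM per kb, and 57 members lay above the latter. Total counts lay between 6797180 and 8960688 read pairs in control mice and between 6682177 and 7833916 in IDA mice. The heart markers *Myh6*, *Actc1*, *Tnnt2* and 5 others were present throughout (summed level 4048 to 5044 CPM per mouse). Of 11 erythroid markers 7 were in the table and 3 of these at 0; the summed level of the 7 was 54.6 to 129 CPM in control mice and 147 to 586 CPM in IDA mice. Liver markers (3 genes) reached 59.2 CPM in control mouse 4 and 118 CPM in IDA mouse 7, where the group medians were 3.74 and 9.01 CPM. The study left out a mouse of each group for contamination without naming it, so all 20 are used here.

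Most members were lower in IDA hearts before any adjustment. With edgeR's quasi-likelihood test (Benjamini-Hochberg adjusted p below 0.05 over the 13590 genes), 144 members were lower and 43 higher. Over all tested genes 32.5% were lower and 35.0% higher, against 51.4% and 15.4% of the members. The median log2 fold change, IDA over control, was -0.20 over the members and 0.023 over all tested genes. Taking each member's deviation from its own mean over mice (log2), the median over members was -0.0014 to 0.20 in the control mice and -0.25 to 0.0019 in the IDA mice. The groups overlapped by a single pair, control mouse 2 at the bottom of its group and IDA mouse 2 at the top.

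The members are long and AT-rich, and both properties moved with diet over all genes. In each mouse, the slope of a gene's deviation on exonic length was 0.020 to 0.20 (log2 per doubling of length) in control hearts and -0.25 to -0.025 in IDA hearts, so that longer genes were relatively lower in every IDA mouse. The median exonic length was 3500.5 bp for members and 2900 bp for tested genes, and the median GC content of the transcript was 45.2% and 49.9%. Once each mouse's trend on length had been removed, 93 members were lower and 64 higher, where 23.5% of all tested genes were lower and 31.5% higher, and the members' median was -0.064 with 0.038 over all tested genes. Of the 144 members lower without this correction 89 were lower with it, 49 were not called and 6 were called higher; of the 43 higher, 34 were higher with it and 0 lower.

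GC content moved with diet too after the length trend was gone. The slope per 10 percentage points of GC was -0.19 to -0.021 in control hearts and -0.0059 to 0.20 in IDA hearts. With trends on both length and GC content removed, 54 members were lower and 63 higher, against 19.9% and 26.9% of all tested genes, and the members' median log2 fold change was 0.013, next to 0.027 over all tested genes. Their share of lower calls (19.3%) was then near that of all genes. Each correction takes out any trend on the property, whatever its origin, and the origin was not tested. In the text below, values are without correction unless the length correction, or the length and GC correction, is named.

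**Figure D1:**
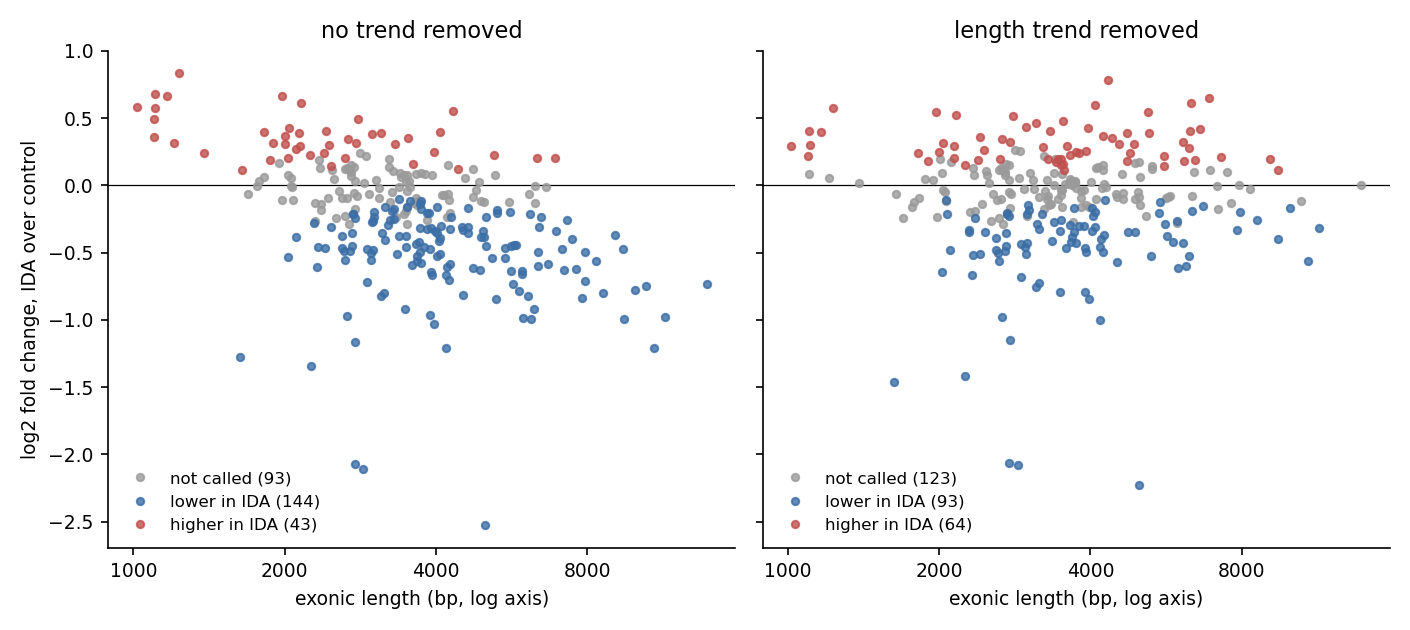
Log2 fold change (IDA over control) of the 280 members against exonic length (bp, log axis), without correction (left) and with the length trend of each mouse removed (right). Points are genes, coloured by their call (adjusted p below 0.05 in edgeR): lower and higher calls number 144 and 43 on the left, where folds go down with length, and 93 and 64 on the right.

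The slope on length can be seen member by member. Over the 280 members, Spearman's rho between log2 fold change and exonic length was -0.48 without correction and -0.026 with the length correction, a description over genes that share the same libraries. The members were split into 4 bins of 70 by length. In the shortest bin (1016 to 2678.5 bp) 14 of 70 were lower and 29 higher, and in the longest (4585.5 to 13844 bp) 55 of 70 were lower and 3 higher. All tested genes were cut at the inner bounds only, so their end bins can hold genes beyond the members' range. In the shortest bin their median length was 1748 bp, against 2152.5 bp for members. In the shortest and longest bins 9.3% and 71.3% of all tested genes were lower, next to 20% and 78.6% of the members. Higher calls were 58.7% and 4.8%, next to 41.4% and 4.3% of the members.

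GC content graded the members in the same way. Split likewise by GC content, the bin of lowest GC content (33.2% to 40.5%) had 50 of 70 members lower and 4 higher, and the bin of highest GC content (51.7% to 68.7%) had 13 lower and 28 higher. All tested genes were again cut at the inner bounds only, so the end bins can hold genes beyond the members' range. Higher calls were 5.7% and 40% of the members of the lowest and highest bins, and 10.7% and 53.8% of all tested genes in these bins. From the lowest to the highest bin, 71.4%, 64.3%, 51.4% and 18.6% of members were lower, where all tested genes gave 61.3%, 53.9%, 37.9% and 13%. With the length correction the shares were 60.0%, 44.3%, 21.4% and 7.1% for members and 53.6%, 43.4%, 25.7% and 7.1% for all genes. With length and GC corrected, they were 22.9%, 21.4%, 17.1% and 15.7% for members and 21.9%, 22.0%, 20.2% and 18.3% for all genes. Spearman's rho between log2 fold change and GC content over the 280 members was 0.48 without correction, 0.55 with the length correction and 0.055 with both.

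**Figure D2:**
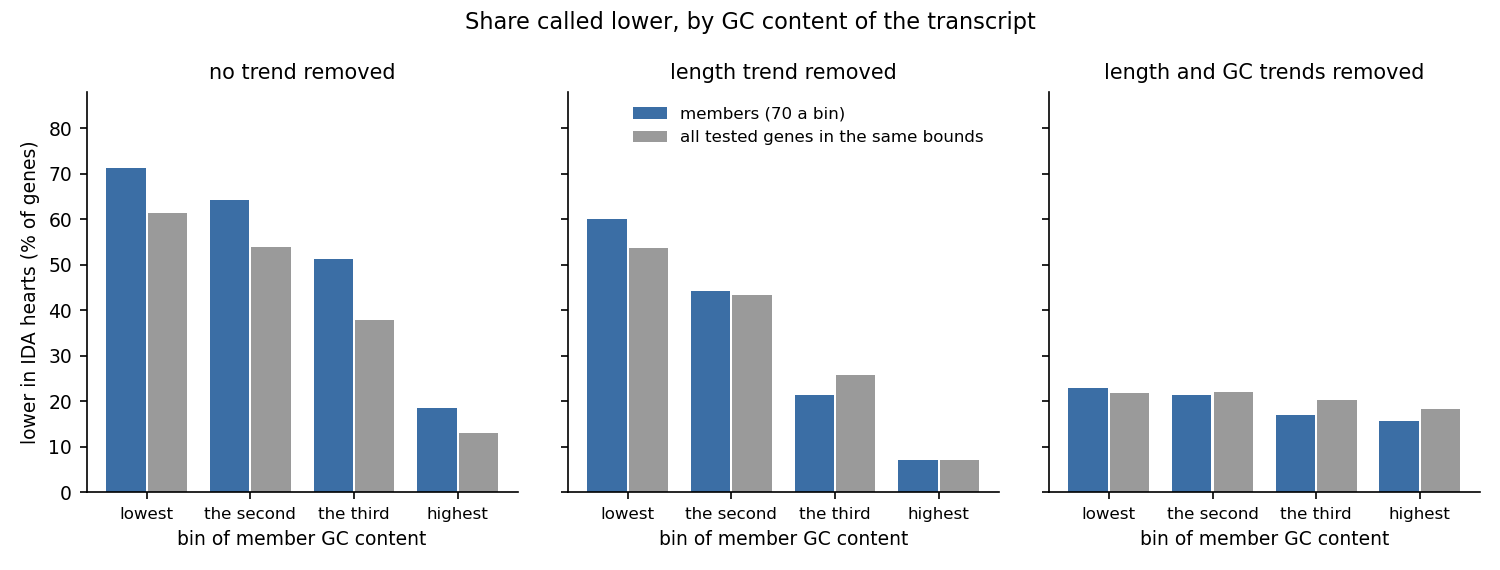
Share of genes called lower in IDA hearts (%, adjusted p below 0.05 in edgeR) in 4 bins of the members' GC content, for members (blue, 70 a bin) and all tested genes cut at the same inner GC bounds (grey). Without correction and with the length correction the share goes down from the lowest to the highest GC bin in both, and with length and GC corrected it lies between 15.7% and 22.9% for the members.

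Several members changed far more than these trends, and *Zbed6* most of all. *Zbed6* (chr1:133655879-133660885 of mm10, minus strand) is a single exon of 5007 bp inside an intron of *Zc3h11a*, and its protein is known as a repressor of *Igf2* in muscle. It had 15.2, 34.2 and 58.97 CPM (lowest, median and highest) in control mice and 1.32, 5.19 and 10.7 CPM in IDA mice, and no IDA mouse reached a control mouse. The means were 34.9 ± 14.7 CPM and 6.08 ± 3.17 CPM (SD, n = 10 each), a log2 fold change of -2.53 (standard error 0.29). It was -2.23 with the length correction and -2.06 with both corrections, and -2.59 and -2.52 within the lower and the upper run of library numbers in the column names. *Zbed6* was added by name with its values known, so these are a description and no test is given.

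Its host gene and its known target moved differently. *Zc3h11a*, an RNA export factor gene, had 156, 176 and 194 CPM in control mice and 95.4, 117 and 149.9 CPM in IDA mice, with no overlap, and its log2 fold change was -0.53 ± 0.0647 (SE, edgeR adjusted p = 5.25e-07). The ratio of *Zbed6* to *Zc3h11a* read pairs was 0.196 ± 0.072 in control hearts and 0.049 ± 0.021 in IDA hearts (SD, n = 10 each), with ranges of 0.089 to 0.304 and 0.012 to 0.080 that did not overlap. Because *Zbed6* lies in an intron, read pairs from unspliced or intron-holding *Zc3h11a* transcripts are counted as *Zbed6*, and these cannot be told apart in the table. *Igf2*, an insulin-like growth factor gene, had 71.9, 89.3 and 118 CPM in control mice and 62.4, 93.1 and 117 CPM in IDA mice, and its log2 fold change of -0.0065 was smaller than the spread between mice (adjusted p = 0.959 in edgeR).

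The *Zfp* genes with the largest decreases were *Zfp369* and *Zfp366*. The mean of *Zfp369* was 7.43 CPM in control and 1.72 CPM in IDA mice. It thus passed the threshold of 3 CPM only through the control mice, and its rank is a description. *Zfp369* (chr13:65278854-65297795), which encodes a neurotrophin receptor interacting factor, had 1.94, 7.66 and 12.7 CPM in control mice and 0.433, 1.49 and 3.54 CPM in IDA mice, and only the lowest control mouse, number 2, and number 6 lay within the IDA range. Its log2 fold change was -2.11 ± 0.3004 (SE, edgeR adjusted p = 2.75e-06), and -2.08 and -1.86 with the length and the length and GC corrections. *Zfp366* (chr13:99184823-99247032), known as DC-SCRIPT, a nuclear receptor co-regulator of dendritic cells, had 8.17, 25.1 and 31.6 CPM in control mice and 1.45, 4.97 and 9.65 CPM in IDA mice. Control mouse 6 alone lay within the IDA range. The log2 fold change was -2.07 ± 0.247 (SE, edgeR adjusted p = 4.70e-07) and stayed at -2.06 and -2.07 with the corrections. Leukocyte markers (8 genes, 0 of them at 0) summed to 462 to 527 CPM in the control mice and 483 to 591 CPM in the IDA mice, and their part in the result was not tested.

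The next strongest decreases were in genes at low level. The means of *Zfp81*, *Zfp72* and *Zfp169* in IDA mice were 2.94, 2.58 and 2.27 CPM, below the threshold of 3 CPM. They passed it only through the control mice, so their ranks too are a description. *Zfp81* (chr17:33333728-33358878), a KRAB gene, had 3.88, 8.06 and 10.1 CPM in control mice and 1.61, 3.05 and 4.05 CPM in IDA mice, a log2 fold change of -1.34 ± 0.181 (SE, edgeR adjusted p = 1.55e-06). *Zfp72* (chr13:74371426-74376566) had 3.84, 6.37 and 8.91 CPM in control mice and 1.59, 2.41 and 3.58 CPM in IDA mice, without overlap, a log2 fold change of -1.28 ± 0.166 (SE, edgeR adjusted p = 1.02e-06). These genes are shorter than the median member, and with the length correction their log2 fold changes were larger in size, -1.42 and -1.46. *Zfp169* (log2 fold change -1.21 ± 0.209 (SE, edgeR adjusted p = 2.51e-05)), *Zfp442* (-1.16 ± 0.184 (SE, edgeR adjusted p = 9.53e-06)) and *Zfp712* (-1.03 ± 0.174 (SE, edgeR adjusted p = 2.08e-05)), all with a KRAB box and 17 to 20 fingers, had control medians of 5.59, 6.79 and 6.80 CPM and IDA medians of 2.04, 2.62 and 3.22 CPM.

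*Zfp871* and *Zfp652* stood at higher levels. *Zfp871*, a KRAB gene of 10850 bp, had 77.7, 114 and 161 CPM in control mice and 36.1, 45.98 and 67.4 CPM in IDA mice, without overlap. Its log2 fold change of -1.21 ± 0.128 (SE, edgeR adjusted p = 2.34e-07) was -0.56 with the length correction and -0.34 with both, so the size of the change depended on the correction while its direction did not. *Zfp652*, whose length is below the members' median, had 21.9, 38.8 and 45.7 CPM in control mice and 13.7, 17.97 and 24.5 CPM in IDA mice. The log2 fold change was -0.97 ± 0.136 (SE, edgeR adjusted p = 2.26e-06), -0.98 with the length correction and -0.88 with both.

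The largest increases were smaller than the largest decreases: 9 of 280 members had a log2 fold change of -1 or less and 0 had one of 1 or more. Of the 13590 tested genes, 399 were at -1 or less, a similar share. With the length correction 7 members and 231 tested genes were at -1 or less, and with both corrections 5 and 201. The count at 1 or more was not taken over all tested genes. *Zfp771* (chr7:127244526-127254801), at 68.7% the member of highest GC content, had 12.7, 14.97 and 18.9 CPM in control mice and 17.5, 26.6 and 34.6 CPM in IDA mice, and its log2 fold change was 0.83 ± 0.119 (SE, edgeR adjusted p = 2.65e-06). *Zfp580* had 7.197, 9.56 and 12.01 CPM in control mice and 12.6, 15.5 and 19.6 CPM in IDA mice, without overlap, a log2 fold change of 0.68 ± 0.102 (SE, edgeR adjusted p = 4.50e-06). *Zfp428* (0.67 ± 0.0889 (SE, edgeR adjusted p = 1.33e-06)) and *Zfp524* (0.58 ± 0.0736 (SE, edgeR adjusted p = 8.37e-07)) also did not overlap between groups, with lowest IDA mice at 29.3 and 27.1 CPM and highest control mice at 27.4 and 25.4 CPM. *Zfp593*, a gene of large ribosomal subunit assembly whose exons overlap *E130218I03Rik*, was at a median of 4.77 CPM in control mice and 7.46 CPM in IDA mice (log2 fold change 0.66 ± 0.112 (SE, edgeR adjusted p = 2.00e-05)). *Zfp579* (0.62 ± 0.119 (SE, edgeR adjusted p = 9.09e-05)) and *Zfp688* (0.58 ± 0.132 (SE, edgeR adjusted p = 4.87e-04)) overlapped between groups. These members are short and GC-rich, and with length and GC corrected the changes of *Zfp771*, *Zfp580*, *Zfp428*, *Zfp524*, *Zfp579* and *Zfp688* did not pass the threshold (log2 fold change 0.17, 0.071, 0.076, 0.075, 0.20 and 0.23).

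*Zfp444* and *Zfp622* were higher whichever correction was used. *Zfp444* (chr7:6172513-6193104) had 17.2, 19.1 and 22.96 CPM in control mice and 24.1, 27.5 and 35.95 CPM in IDA mice, without overlap, and its log2 fold change was 0.56 ± 0.0757 (SE, edgeR adjusted p = 1.61e-06), 0.79 with the length correction and 0.72 with both. *Zfp622*, which encodes a factor of the maturing large ribosomal subunit, had 38.9, 52.95 and 58.7 CPM in control mice and 64.3, 74.3 and 87.8 CPM in IDA mice, without overlap, and its log2 fold change was 0.50 ± 0.0694 (SE, edgeR adjusted p = 2.19e-06), 0.52 and 0.67 with the corrections. The longer GC-rich members gained from the length correction: *Zfp316* went from 0.20 to 0.65 (edgeR adjusted p = 6.95e-06), *Zfp651* from 0.20 to 0.61 (edgeR adjusted p = 6.22e-07), *Zfp775* from 0.40 to 0.60 (edgeR adjusted p = 2.64e-06) and *Zfp282* from 0.23 to 0.54 (edgeR adjusted p = 1.65e-06). All 4 also passed the threshold without correction.

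**Figure D3:**
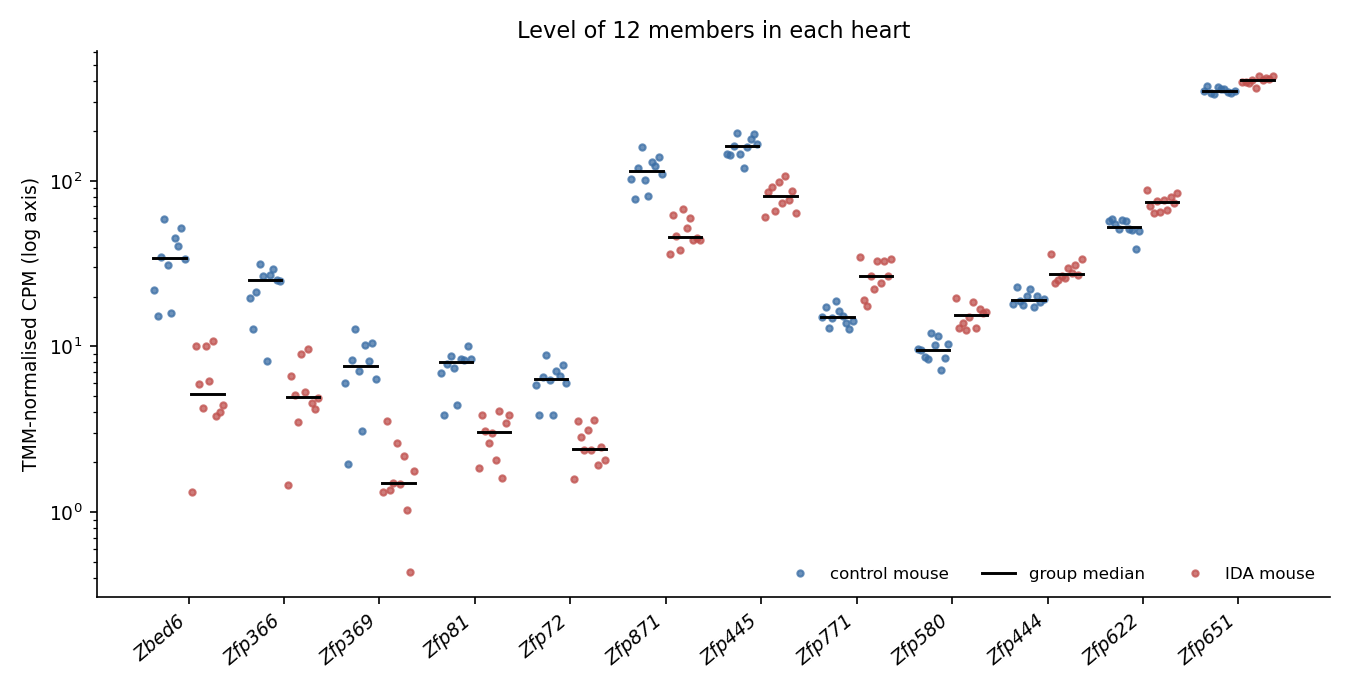
Level (TMM-normalised CPM, log axis) of 12 members in each of the 10 control (blue) and 10 IDA (red) hearts, with a bar at the group median. *Zbed6*, *Zfp72*, *Zfp871* and *Zfp445* are lower in every IDA mouse than in any control mouse, *Zfp580*, *Zfp444* and *Zfp622* higher in every one, and the other 5 overlap.

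In all, 19 members were lower in every IDA mouse than in any control mouse and 10 were higher in every one. Over all tested genes 6.28% and 4.97% were so separated, against 6.8% and 3.6% of the members, so separation was about as common among members as among all genes. Besides those named above, *Zfp445*, *Zfp26*, *Zfp609*, *Zfp704* and *Zfp644* stood among the separated lower members, and *Zfp637*, *Zfp358*, *Zfp777*, *Zfp954* and *Zfp259* among the higher. *Zfp704*, at 13844 bp the longest member, was separated but not called with the length correction: its log2 fold change was -0.73 ± 0.0842 (SE, edgeR adjusted p = 3.62e-07) without the length correction and 0.0054 with it. *Zfp26*, *Zfp609*, *Zfp704*, *Zfp644*, *Zfp777*, *Zfp954* and *Zfp259* were picked for mention after their values were seen. Across the 3 treatments of trends, 47 members were called lower in all and 19 higher in all. The matching shares of all tested genes were not computed, so these counts do not show whether members differ from other genes.

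The 5 members at the highest level per kilobase were *Zfp106* (105 CPM per kb), *Zfp651* (59.7), *Zfp358* (53.8), *Zfp768* (52.3) and *Zfp637* (46.6). *Zfp106*, an RNA-binding protein gene needed for motor neuron and muscle upkeep, had 899, 1100.0 and 1154 CPM in control mice and 659.8, 838 and 1044 CPM in IDA mice, and its direction depended on the correction. Its log2 fold change was -0.37 ± 0.0625 (SE, edgeR adjusted p = 2.07e-05) without correction, 0.19 (edgeR adjusted p = 0.00340) with the length correction and 0.27 with both. *Zfp651* had 333, 349.9 and 375 CPM in control mice and 366, 405 and 432 CPM in IDA mice, with only part of the IDA range shared with controls. *Zfp358* had 85.98, 92.6 and 103 CPM in control mice and 105, 122 and 132 CPM in IDA mice (log2 fold change 0.37 ± 0.0479 (SE, edgeR adjusted p = 1.03e-06)), without overlap. *Zfp637* was likewise separated, at 36.6 to 48.5 CPM in control mice and 49.2 to 69.1 CPM in IDA mice, and was higher in all 3 fits (0.49, 0.22 and 0.28). *Zfp768* was 0.22 higher without correction, 0.15 with the length correction and, not called, -0.088 with both.

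Of the 6 members called lower without and higher with the length correction, *Zfp106*, *Zfp148* and *Zfp592* moved most. *Zfp148* encodes ZBP-89, which binds GC-rich promoters. It had 105, 126 and 146 CPM in control mice and 77.4, 87.9 and 108 CPM in IDA mice, a log2 fold change of -0.47 ± 0.0674 (SE, edgeR adjusted p = 2.77e-06), and with the length correction 0.11 (edgeR adjusted p = 0.00865). *Zfp592* went from -0.26 ± 0.0623 (SE, edgeR adjusted p = 8.55e-04) to 0.21 (edgeR adjusted p = 0.00565). The exons of these genes span 9431 and 7292 bp.

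Among the RNA-binding, ribosome-linked and ubiquitin-linked members, 9 were measured, and 4 were lower (44.4%) and 3 higher (33.3%), where all tested genes gave 32.5% and 35.0%. The lower ones were *Zfp106*, *Zfp326* (log2 fold change -0.36 ± 0.0603 (SE, edgeR adjusted p = 2.13e-05)), whose protein couples splicing to transcript elongation, *Zfp207* (-0.14 ± 0.0475 (SE, edgeR adjusted p = 0.0152)), a spindle and splicing protein gene, and *Zfp91* (-0.20 ± 0.0423 (SE, edgeR adjusted p = 2.78e-04)), a ubiquitin ligase gene with exons that overlap *U05342*. The higher ones were *Zfp593*, *Zfp622* and *Zfp346* (0.16 ± 0.0452 (SE, edgeR adjusted p = 0.00385)), which encodes a double-stranded RNA binder. With the length correction 1 was lower (*Zfp326*) and 6 were higher, among them *Zfp91* and *Zfp598*, the ubiquitin ligase gene of collided ribosomes. With both corrections 6 of the 9 were higher and the others were not called, *Zfp326* among them (-0.11 (adjusted p = 0.0881 in edgeR)). *Zfp36*, which encodes tristetraprolin, the decay factor of AU-rich transcripts, had 56.6, 73.4 and 85.7 CPM in control mice and 51.1, 66.9 and 132 CPM in IDA mice. Its log2 fold change was -0.0019 (adjusted p = 0.991 in edgeR), with IDA mouse 5 standing alone at the top.

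The 6 measured KRAB members known for imprinting and for silencing retroelements had 4 lower and 0 higher in edgeR, both without and with the length correction (66.7%, where 32.5% and then 23.5% of all tested genes were lower). With both corrections 2 of the 6 (33.3%) were lower, *Zfp445* and *Zfp809*, against 19.9% of all tested genes. *Zfp445*, which keeps methylation at imprinted regions, changed most: it had 119, 162 and 195 CPM in control mice and 60.8, 80.8 and 107 CPM in IDA mice, without overlap, and a log2 fold change of -0.99 ± 0.0999 (SE, edgeR adjusted p = 1.71e-07), -0.60 with the length correction and -0.44 with both. *Zfp57*, its partner in imprint upkeep in the embryo, was close to the level threshold, at medians of 3.30 CPM in control and 3.55 CPM in IDA hearts, and was not called. *Zfp809*, a silencer of murine leukemia virus, was at 29.97, 33.9 and 42.1 CPM in control mice and 23.5, 25.8 and 30.9 CPM in IDA mice (log2 fold change -0.38 ± 0.0664 (SE, edgeR adjusted p = 2.79e-05)), -0.48 and -0.36 with the corrections. *Zfp708* (log2 fold change -0.55 ± 0.133 (SE, edgeR adjusted p = 8.84e-04)), which has exons overlapping *Rslcan18*, and *Zfp568* (-0.63 ± 0.119 (SE, edgeR adjusted p = 7.68e-05)), a repressor of a placental *Igf2* transcript, were lower too, but *Zfp568* was not called with the length correction (-0.17), nor *Zfp708* with both (-0.30 (adjusted p = 0.0608 in edgeR)). *Zfp932* was called lower with it only (-0.11 without, -0.21 with).

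Of 15 developmental and promoter-binding transcription factor members, 12 were lower (80%) and 1 higher (6.7%), against 32.5% and 35.0% of all tested genes. The length correction gave 6 lower and 4 higher (40% and 26.7%, against 23.5% and 31.5%), and with both corrections 6 and 3 (40% and 20%, against 19.9% and 26.9%). *Zfp516*, a brown fat regulator, had 29.1, 38.6 and 43.8 CPM in control mice and 17.8, 20.3 and 31.6 CPM in IDA mice and a log2 fold change of -0.84 ± 0.0917 (SE, edgeR adjusted p = 2.67e-07). *Zfp281*, a regulator of stem cell exit from pluripotency, had 29.8, 44.9 and 49.3 CPM in control mice and 19.1, 23.2 and 30.5 CPM in IDA mice and -0.84 ± 0.09502 (SE, edgeR adjusted p = 3.20e-07). *Zfp217*, a partner of the histone demethylase KDM1A, had 29.1, 41.9 and 49.1 CPM in control mice and 17.4, 22.6 and 29.6 CPM in IDA mice and -0.79 ± 0.0983 (SE, edgeR adjusted p = 6.57e-07). These 3 were also lower with the length correction (-0.33, -0.52 and -0.42) and with both (-0.44, -0.36 and -0.47). *Zfp260*, a cardiac factor of alpha-1 adrenergic signalling that acts with GATA4, was at 94.4, 104 and 112 CPM in control mice and 71.9, 85.02 and 94.9 CPM in IDA mice, with only the highest IDA mouse within the control range, and its log2 fold change was -0.31 ± 0.0471 (SE, edgeR adjusted p = 4.89e-06), -0.17 with the length correction and 0.024 with both.

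The calls of the other factors of this list varied with the correction. *Zfp462*, *Zfp423* and *Zfp703* had log2 fold changes of -0.75, -0.38 and -0.25, each called, and -0.11, -0.10 and -0.15 with the length correction, not called. With both corrections *Zfp423* (-0.28) and *Zfp703* (-0.41) were called lower, and *Zfp462* (-0.058) was not called. *Zfp418*, *Zfp143*, *Zfp521* and *Zfp384* had -0.49, -0.23, -0.21 and -0.11, each called. Of these, with the length correction, *Zfp418* (-0.49) and *Zfp143* (-0.18) were called lower and *Zfp521* (0.18) higher, and with both corrections *Zfp418* (-0.36) was called lower and *Zfp521* (0.17) higher. *Zfp219*, a SOX9 partner whose exons overlap *Arhgef40* and *Tmem253*, was the higher one (log2 fold change 0.30 ± 0.0555 (SE, edgeR adjusted p = 4.90e-05)), 0.40 and 0.12 with the corrections. *Zfp335* was not called without correction (0.052), was higher with the length correction (0.31 (edgeR adjusted p = 2.36e-04)) and was not called with both (0.073). *Zfp503* (-0.23) was not called in any of the 3 fits.

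The presence of a KRAB box was read from the annotated protein by a sequence profile. Of 278 members with an annotated protein, 151 had a KRAB box and 127 did not, and the median numbers of C2H2 fingers were 12 and 8. Among those with a box, 83 (55.0%) were lower and 12 (7.9%) higher, with a median log2 fold change of -0.24. Among those without, 61 (48.0%) were lower and 31 (24.4%) higher, with a median of -0.12. Over all tested genes 32.5% were lower and 35.0% higher. With the length correction 57 (37.7%) were lower and 19 (12.6%) higher with a box, and 36 (28.3%) and 44 (34.6%) without, against 23.5% and 31.5% of all tested genes. With both corrections 29 (19.2%) were lower and 34 (22.5%) higher with a box, and 25 (19.7%) and 29 (22.8%) without. All tested genes then gave 19.9% and 26.9%, so the shares of lower calls were near that of all genes. KRAB members had a median GC content of 42.5%, the others 50%. Within the lowest GC bin, 37 of 55 members with a box and 13 of 15 without were lower, and within the highest, 2 of 16 and 11 of 53.

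Without correction, the share of lower calls went up with the number of fingers. Over all tested genes 32.5% were lower and 35.0% higher. Of members with 0 to 1 fingers 7 of 19 were lower, of those with 2 to 5 fingers 18 of 40, with 6 to 10 fingers 36 of 78, with 11 to 15 fingers 50 of 93, and with 16 or more 33 of 48. The shares were 36.8%, 45.0%, 46.2%, 53.8% and 68.8%. In the same order, 5 of 19, 13 of 40, 19 of 78, 4 of 93 and 2 of 48 were higher, or 26.3%, 32.5%, 24.4%, 4.3% and 4.2%. The group with 16 or more fingers had a median length of 3972.5 bp and a median GC content of 42.2%. With both corrections its share was 22.9%, next to 21.1%, 10%, 20.5% and 20.4% in the groups with fewer fingers.

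**Figure D4:**
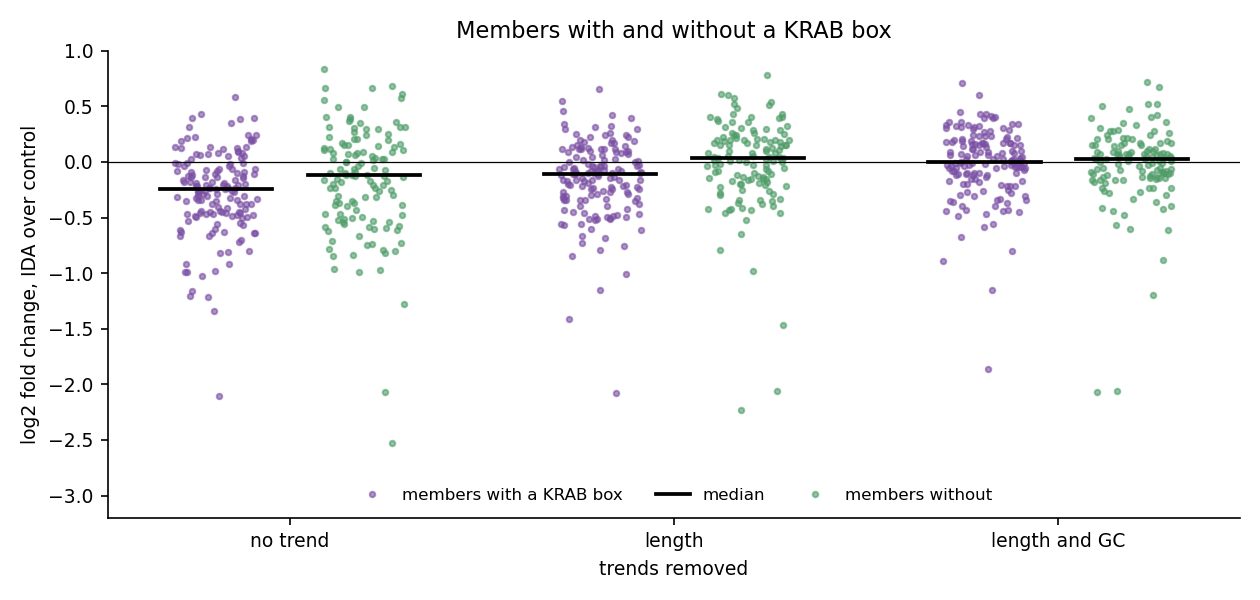
Log2 fold change (IDA over control) of members with (purple, 151) and without (green, 127) a KRAB box, without correction, with the length trend removed, and with the length and GC trends removed. Points are genes and bars medians: -0.24 and -0.12, then -0.11 and 0.033, then 0.0027 and 0.024.

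Neighbouring members were also compared by cluster. Runs of at least 5 genes with *Zfp* number symbols, each within 200000 bp of the next, formed 13 clusters that held 98 members. Over all tested genes 32.5%, 23.5% and 19.9% were lower without correction, with the length correction and with both, and 35.0%, 31.5% and 26.9% higher. The largest, on chromosome 17 from 21383748 to 22456689, ran from *Zfp677* to *Zfp946* with 15 members, all with a KRAB box and with a median GC content of 38.5%. In it, 11 members were lower and 0 higher, with log2 fold changes from -0.81 (*Zfp229*) to -0.020 (*Zfp53*) and a median of -0.40. With the length correction 9 were lower and 0 higher, and with both corrections 4 were lower (*Zfp677*, *Zfp948*, *Zfp229* and *Zfp758*) and 3 higher (*Zfp53*, *Zfp942* and *Zfp944*). Among all tested genes of at most 40.5% GC content, 61.3% were lower, 53.6% with the length correction and 21.9% with both. Higher calls were 10.7%, 9.8% and 32.5% of these genes.

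A cluster on chromosome 7 went the other way. From 4915217 to 5053723 it holds *Zfp628*, *Zfp579*, *Zfp524*, *Zfp865*, *Zfp784* and *Zfp580*, none with a KRAB box, with a median GC content of 61.2%. All 6 were higher, with log2 fold changes from 0.25 (*Zfp865*) to 0.68 (*Zfp580*), and all 6 were higher with the length correction. With length and GC corrected, *Zfp865* alone was called (0.24, adjusted p = 0.00491 in edgeR), while the other 5 lay between 0.071 and 0.20. Among all tested genes above 51.7% GC content, 53.8% were higher, 51.2% with the length correction and 22.8% with both. A second cluster with increases, on chromosome 7 from 127233443 to 127614433, had 4 of 8 members higher (50%) and 0 lower, with *Zfp771* and *Zfp688* at the top. Its median GC content was 53.5%, and its share of higher calls was near the 53.8% of all tested genes above 51.7% GC content. With the length correction 5 of its members were higher, and with both corrections 1 was, with 0 lower in each. Paralogs in a cluster can share read pairs, which was not measured here, so values of single neighbours are less certain.

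The remaining clusters lay between these. Chromosome 13 from 67038594 (*Zfp712* to *Zfp273*) had 8 of 11 lower (72.7%), chromosome 17 from 32765497 (*Zfp871* to *Zfp563*) 6 of 7 (85.7%), and chromosome 7 from 29768552 (*Zfp84* to *Zfp146*) 7 of 13 (53.8%), with 0 higher in each. Their median GC contents were 39.0%, 40.5% and 46.2%. Of all tested genes, 61.3% were lower at a GC content of at most 40.5%, and 37.9% between 45.2% and 51.7%. With both corrections the first had 2 lower and 1 higher, the other two 2 lower and 2 higher each. The 4 clusters with medians below -0.3 had median GC contents of 38.5% to 46.2%, and the 3 with medians above 0 had 53.5% to 61.2%. Members outside clusters were lower in 99 of 182 cases (54.4%), those in clusters in 45 of 98 (45.9%). The genes singled out in clusters were picked after their values were seen.

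**Figure D5:**
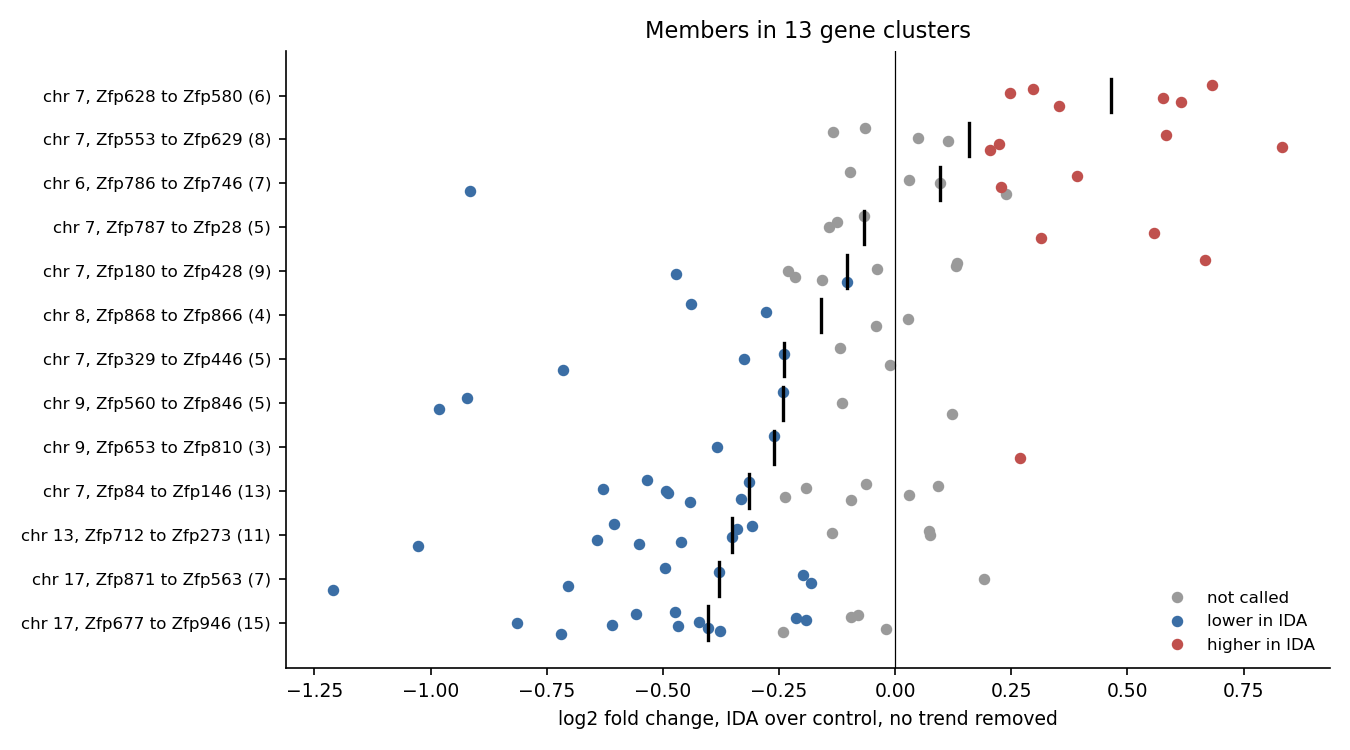
Log2 fold change (IDA over control, no trend removed) of members in 13 gene clusters, ordered by cluster median (black bar), with points coloured by call (adjusted p below 0.05 in edgeR) and the number of members in brackets. The chromosome 17 cluster of 15 has a median of -0.40 with 11 lower members, and the chromosome 7 cluster of 6 has a median of 0.46 with all 6 higher.

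Promoter sequences were set side by side by direction of change, as a description. RefSeq promoters (250 bases before and 50 after a gene's start, GRCm38.p6, the same assembly as mm10) were matched by symbol for 228 members and 10040 tested genes, taking the start nearest to the table's. The GC box GGGCGG, read on both strands, occurred in 47.8% of member promoters and 64.6% of all; it occurred in 42.2% of the promoters of lower members and 64.9% of those of higher members. The CCAAT box, read likewise, occurred in 47.8% of member promoters and 38.1% of all. The median promoter GC content was 54.0% for lower and 60.3% for higher members. A match is a description of letters and not of binding. Single promoters did not all follow the groups. Those of 2 strongly lower and 4 higher members are shown as examples, with each GC box on either strand in capitals. *Zbed6* (chr1:133660836-133661135, minus strand), lower, has 21 CpG, 1 GC box and a GC content of 66.0%, and *Zfp580* (chr7:5051282-5051581, plus strand), higher, has 19 CpG, 0 GC boxes and a GC content of 56.3%. *Zfp81* (chr17:33358829-33359128, minus strand) has 12 CpG and 1 GC box, *Zfp771* (chr7:127244276-127244575, plus strand) 25 CpG and 6 GC boxes, *Zfp651* (chr9:121759783-121760082, plus strand) 46 CpG and 4 GC boxes, and *Zfp444* (chr7:6172263-6172562, plus strand) 16 CpG and 1 GC box.
Zbed6: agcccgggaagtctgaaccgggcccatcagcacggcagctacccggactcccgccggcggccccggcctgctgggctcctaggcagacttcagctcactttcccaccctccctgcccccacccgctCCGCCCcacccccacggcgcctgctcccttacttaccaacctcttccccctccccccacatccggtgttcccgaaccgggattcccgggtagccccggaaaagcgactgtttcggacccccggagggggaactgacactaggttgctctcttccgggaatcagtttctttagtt
Zfp81: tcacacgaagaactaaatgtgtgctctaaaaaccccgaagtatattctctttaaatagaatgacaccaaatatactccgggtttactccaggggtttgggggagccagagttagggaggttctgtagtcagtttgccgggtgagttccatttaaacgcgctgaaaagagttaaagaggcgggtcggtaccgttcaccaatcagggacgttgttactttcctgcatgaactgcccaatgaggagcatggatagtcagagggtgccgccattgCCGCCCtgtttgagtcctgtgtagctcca
Zfp580: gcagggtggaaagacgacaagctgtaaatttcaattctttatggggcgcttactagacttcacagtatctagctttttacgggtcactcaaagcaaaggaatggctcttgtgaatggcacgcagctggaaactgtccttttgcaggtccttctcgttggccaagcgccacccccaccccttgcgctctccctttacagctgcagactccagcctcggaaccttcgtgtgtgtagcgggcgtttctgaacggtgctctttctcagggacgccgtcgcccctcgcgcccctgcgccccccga
Zfp771: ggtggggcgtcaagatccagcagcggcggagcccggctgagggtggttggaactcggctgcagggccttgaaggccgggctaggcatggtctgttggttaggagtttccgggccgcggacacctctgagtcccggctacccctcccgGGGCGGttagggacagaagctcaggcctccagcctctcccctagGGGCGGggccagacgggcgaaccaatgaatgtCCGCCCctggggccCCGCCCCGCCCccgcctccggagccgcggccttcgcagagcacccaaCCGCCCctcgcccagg
Zfp651: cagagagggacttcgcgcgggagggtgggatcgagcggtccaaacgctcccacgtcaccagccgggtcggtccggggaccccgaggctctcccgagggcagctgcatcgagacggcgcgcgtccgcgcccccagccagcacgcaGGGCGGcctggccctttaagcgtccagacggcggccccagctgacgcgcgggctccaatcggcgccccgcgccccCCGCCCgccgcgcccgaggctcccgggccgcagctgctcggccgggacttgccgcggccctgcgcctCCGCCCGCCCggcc
Zfp444: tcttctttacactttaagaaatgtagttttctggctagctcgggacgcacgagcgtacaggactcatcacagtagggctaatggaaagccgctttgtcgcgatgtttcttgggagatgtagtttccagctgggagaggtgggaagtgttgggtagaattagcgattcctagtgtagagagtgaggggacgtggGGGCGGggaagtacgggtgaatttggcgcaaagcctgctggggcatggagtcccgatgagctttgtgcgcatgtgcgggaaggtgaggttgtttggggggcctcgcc

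The partners through which KRAB proteins act were mixed. Of 15 tested KRAB co-repressor and heterochromatin genes, 11 were lower and 2 higher (73.3% and 13.3%, against 32.5% and 35.0% of all tested genes). The length correction gave 7 lower and 4 higher (46.7% and 26.7%, against 23.5% and 31.5%), and with both corrections 4 were lower and 4 higher (26.7% each, near the 19.9% and 26.9% of all tested genes). *Trim28* was among the higher, at 139, 147 and 166 CPM in control mice and 161, 184 and 201 CPM in IDA mice (log2 fold change 0.29 ± 0.0469 (SE, edgeR adjusted p = 1.25e-05)), 0.38 and 0.14 with the corrections. *Atf7ip*, the partner of SETDB1, was the lowest, at 90.96, 122 and 139 CPM in control mice and 45.3, 58.04 and 74.2 CPM in IDA mice, without overlap (log2 fold change -0.97 ± 0.0863 (SE, edgeR adjusted p = 1.32e-07)), -0.73 and -0.66 with the corrections. The NuRD complex had 3 of 13 lower and 4 higher, 3 and 7 with the length correction and 5 and 7 with both, from *Gatad2b* (-1.51) to *Mbd3* (0.38, and -0.11 with both corrections). DNA methylation genes had 3 of 4 lower without correction. After the length correction 1 of the 4 was higher and the others were not called, and with both corrections 1 was lower and 1 higher. *Dnmt3a* was at -0.68, at -0.076 with the length correction, not called, and at -0.14 with both, called lower, and *Uhrf1* was at 0.13, not called.

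Other lists were counted in the same way, where all tested genes were lower in 32.5%, 23.5% and 19.9% and higher in 35.0%, 31.5% and 26.9% of cases without correction, with the length correction and with both. Of 15 imprinted genes 7 were lower (46.7%) and 0 higher in edgeR, with *Zim1*, an imprinted zinc finger gene, lowest (-1.92) and *H19* at 0.34, not called; with the length correction, and again with both, 4 were lower and 2 higher. Of 11 AU-rich decay genes 8 were lower (72.7%) and 1 higher (9.1%), then 6 and 3 with the length correction and 4 and 3 with both. *Tnrc6b* had the lowest value of these (-1.0), but was at -0.19 with the length correction and at -0.10, not called, with both, while *Cnot8* had the highest (0.20, then 0.090 and 0.13). Of 22 zinc homeostasis genes 8 were lower and 8 higher (36.4% each, near the shares of all tested genes), then 5 and 6 with the length correction and 2 and 7 with both. Of these, *Slc39a10*, a zinc importer gene, was lowest (-0.81) and *Mt3* highest (1.4), while the metallothionein genes *Mt1* and *Mt2* had 0.25 and 0.59 and, with the length correction, -0.12 and 0.24.

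Genes of neighbouring symbol classes gave counts that also moved with the corrections. Over all tested genes 32.5% were lower and 35.0% higher without correction, and 19.9% and 26.9% with both. Of 35 *Zbtb* genes 19 were lower and 5 higher (54.3% and 14.3%), and with both corrections 11 and 7 (31.4% and 20%). Of 21 *Zfp* genes with a letter suffix 15 were lower and 2 higher (71.4% and 9.5%), and with both 8 and 2 (38.1% and 9.5%). Of 12 *Klf* genes 6 were lower and 2 higher, and with both 4 and 1. Of 15 *Zc3h* genes 8 were lower and 2 higher, and with both 3 and 2. Of 9 *Zscan* genes 4 were lower and 2 higher, and with both 2 and 3, and of 9 *Zkscan* genes 3 were lower and 4 higher, and with both 2 and 5.

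The counts were also taken within runs of library numbers. The column names carry library numbers that form a lower run (5 control and 7 IDA mice) and an upper run (5 control and 3 IDA mice), whose meaning is not given. Within the lower run, 131 members (46.8%) were lower and 36 (12.9%) higher, where 28.7% and 30.2% of all tested genes were, and the median log2 fold change was -0.21 over members and 0.020 over all tested genes. Within the upper run 87 (31.1%) were lower and 23 (8.2%) higher, where 24.1% and 19.4% of all tested genes were, with medians of -0.15 and 0.0022. After the length correction 76 (27.1%) were lower and 47 (16.8%) higher in the lower run, against 17.8% and 25.1% of all tested genes. In the upper run they were 41 (14.6%) and 34 (12.1%), against 13.4% and 15.4%, so that the share of lower members was there near that of all tested genes. With the erythroid marker level as a covariate, which moved with diet, 97 members (34.6%) were lower and 31 (11.1%) higher, against 24.9% and 25.0% of all tested genes, and with the length correction 50 (17.9%) and 42 (15%), against 14.3% and 20.3%. *Zfp366*, *Zfp445* and *Zfp444* were called in both of these fits (log2 fold change -2.34, -1.14 and 0.71 without correction). Over named genes and both fits, 26 results lost their call with this covariate and 3 gained one, and 35 and 2 did in the upper run. With the length correction *Zfp106* was not called with the covariate (0.21). Nor were *Zfp771* (0.30), *Zfp580* (0.38) and *Zfp106* (0.079) in the upper run with it.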

How the data were processed

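Poly-A RNA from whole hearts of 10 control and 10 IDA mice was sequenced as paired ends. Reads were aligned by the authors with STAR (mm10) and cleared of PCR duplicates. The authors then used featureCounts (version 1.4.5-p1), unstranded, to assign read pairs to exons, and deposited the raw counts per gene with each gene's exonic length. Gene names that had been turned into dates (27) or occurred in duplicate (4 rows) were kept as given. The members and lists were chosen with earlier results of these data known. No label ties mice to cages, so p-values measure the spread between the 10 mice of a group.

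Counts were normalized by TMM and tested with edgeR (version 4.0.16, R 4.3.3) with diet as the only factor, over the 13590 genes that reached 1 CPM in 10 or more mice, with Benjamini-Hochberg adjustment. A prior count of 2 entered the log2 levels behind the deviations and trends. Fold changes are those of the quasi-likelihood fit at edgeR's default setting, and that prior count of 2 was not applied to them. In the length correction, each mouse's loess curve (span 0.5, degree 1) of log2 deviations on log2 exonic length entered as offsets. A further curve on transcript GC content gave the length and GC correction, listed as an alternative. DESeq2 (version 1.42.0) was another alternative. GC content and proteins came from GENCODE on GRCm38, exon overlaps from the gene coordinates deposited with the counts, and start sites from the RefSeq promoters. C2H2 fingers were counted by pattern and KRAB boxes by a profile of 38 residues scored against a minimum of 15 bits, which misses a box cut short by the annotated start. The steps were tested on simulated counts.

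Named were *Zbed6*, the 8 lower and 8 higher members with the largest called change without and with the length correction, the 5 with the highest level per kilobase, members on 3 role lists, the 3 with the largest opposite calls, the extremes of each other list, and *Trim28*, *Zc3h11a*, *Igf2*, *Mt1* and *Mt2*.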

Additional observations from a re-analysis of the deposited data

Results flagged for a closer look

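Of 148 groups of 10 values examined, 6 held a mouse far from the rest of its group, a share (4.05%) near the 1 in 20 that chance gives. In control hearts, *Zfp106* was lowest in mouse 6, at 899 CPM, with the next at 1035 CPM. *Zfp622* was lowest in control mouse 9, at 38.9 CPM, with the next at 50.1 CPM. *Mt2* was highest in control mouse 6, at 32.7 CPM, with the next at 20.3 CPM. In IDA hearts, *Zfp36* was highest in mouse 5, at 132 CPM, with the next at 79.4 CPM, and *Zfp516* was highest in the same mouse, at 31.6 CPM, with the next at 24.5 CPM. The median deviation of the members from their means over mice was lowest in IDA mouse 4, at -0.25 on the log2 scale, with the next at -0.12.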

How the results depend on the processing

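Leaving out each mouse in turn gave 139 to 149 members lower, 40 to 48 higher and medians of -0.21 to -0.18, and with the length correction 86 to 95 lower, 55 to 67 higher and medians of -0.074 to -0.044. Other normalization factors, filters and DESeq2 kept these summaries within 1.5 times. Removing trends on length and GC content gave 54 lower members and a median of 0.013 in place of both -0.20 and -0.064; the cause was not tested. It turned the direction of *Zfp106* (0.27), *Zfp768* (-0.088), *Zfp207* (0.20), *Zfp91* (0.19), *Zfp148* (0.33), *Zfp260* (0.024), *Zfp521* (0.17), *Zfp592* (0.15), *Mbd3* (-0.11) and *Mt1* (-0.21) relative to no correction, and that of *Zfp768*, *Zfp260*, *Mbd3*, *Zfp598* (-0.036) and *Zfp932* (0.055) relative to the length correction. *Mt1* with the length correction was 0.040 with no filter on low counts, and *Zfp592* was -0.011 in the upper run. The upper run of library numbers alone, which has 8 mice, gave 87 lower and 23 higher, and 41 and 34 with the length correction. With the length correction, log2 library size as a covariate gave 40 higher, and the erythroid marker mean gave 50 lower and 42 higher. The runs of library numbers were added as an alternative after the data were examined. Mice with the same replicate number did not deviate together over all tested genes (r from -0.28 to 0.26, median -0.0086), so numbers were not taken as pairs. With the replicate number as a block, 140 members were lower and 44 higher, and 87 and 63 with the length correction. At this depth the member of lowest mean count had 22.5 read pairs per mouse, so small changes in such genes were not detectable.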
